A study of Mus musculus with 14 samples.

Results

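Hox genes encode homeodomain transcription factors that give cells along the body axis and along the limb their position. They lie in 4 clusters, and genes at the same place in different clusters, called paralogs, share a number from 1 to 13. Low numbers are used toward the head and high numbers toward the tail, in the same order as the genes lie on the chromosome, and adult fibroblasts, bone, fat, muscle and spinal cord keep much of this record. In the limbs, paralogs 9 and 10 are tied to the upper segment, 11 to the segment that holds the tibia, and 12 and 13 to the paw.

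All 39 mouse Hox genes were taken by symbol from the 55291 symbols of a count table of mouse tibia RNA, and described by paralog number and by cluster. The mice were wild-type female C57Bl/6, and their age is not stated in the labels. They had a sham operation (sham, 3 libraries) or lost their ovaries (OVX, ovariectomy). OVX mice received PBS as the control (group OVX-PBS, 3 libraries), the bisphosphonate zoledronic acid (OVX-ZA, 3), hippuric acid (OVX-HA, 3), or 3'(3'hydroxyphenyl) propionic acid, also written 3-3-PPA (OVX-PPA, 2). Treatment began 2 to 4 days after surgery and lasted 8 weeks. The labels state neither the doses nor whether sham mice received PBS. They also do not tie libraries to separate animals, and p-values then measure only the spread between these libraries.

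Libraries held 11.9 to 35.4 M estimated counts, and 3832 to 15830 of each library's counts fell on Hox genes. Bone markers were present in every library, with Col1a1, the main collagen chain of bone, at 724 CPM (counts per M counts of the library, after TMM scaling) or more. Skeletal muscle transcripts were far more abundant, and Acta1, muscle actin, was at 7779 CPM or more. Transcripts of the central nervous system were also high in 12 libraries and low in OVX-PBS replicate 1 and OVX-HA replicate 2. In those 2 libraries all 14 genes of a list of oligodendrocyte, astrocyte and inhibitory neuron markers lay below the other 12 libraries. Over all genes tested, 12.4% did so. The 2 libraries were singled out by such transcripts in an earlier account of these data, so this count describes that choice and does not test it. The list summed to 74.4 CPM in OVX-PBS replicate 1 and 41.4 in OVX-HA replicate 2, against 553 to 1623 in the others. Gad2 was at 0 in the first and Olig2 at 0 in the second. In whole-tissue RNA, fewer cells of a type and less RNA per cell cannot be told apart.

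Where are the Hox genes in the genome? In the build mm10 (GRCm38, GENCODE annotation) the Hoxa cluster holds 11 genes at chr6:52155590-52260880 on the minus strand. The Hoxb cluster holds 10 genes at chr11:96194316-96368256, the Hoxc cluster 9 at chr15:102921103-103036852 and the Hoxd cluster 9 at chr2:74668310-74765142, all on the plus strand. Neighbouring genes share exons in that annotation. More than 10% of the exon bases of 4 Hox genes, Hoxa2, Hoxd3, Hoxd4 and Hoxd11, are shared with another gene on the same strand. For 7 Hox genes more than 10% is shared with a gene on the opposite strand. How the authors' counting split such reads is not given, so the levels of these genes are uncertain.

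The start regions of 4 genes are printed as examples of genes that were low or high in the 2 libraries low in central nervous transcripts. Hoxb8 and Hoxd11 were lower in both than in the other 12 libraries, and Hoxa2 and Hoxb4 were higher under TMM scaling, though not under scaling by total counts. Each sequence is the 250 bases upstream of a RefSeq start in GRCm38.p6, written 5′ to 3′ on the gene's strand. Capitals mark matches, on either strand, to TGATTNAT, the composite motif that Pbx and Hox proteins bind together, or to TATAAA, the TATA box. No printed match overlaps another. The Hoxb8 window is chr11:96281655-96281904, plus strand.
Hoxb8: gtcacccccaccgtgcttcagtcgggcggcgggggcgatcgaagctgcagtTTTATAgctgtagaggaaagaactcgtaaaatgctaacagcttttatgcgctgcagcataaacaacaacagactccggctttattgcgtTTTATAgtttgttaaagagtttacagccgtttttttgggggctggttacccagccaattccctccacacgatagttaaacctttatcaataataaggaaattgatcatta
The Hoxd11 window, at the downstream of its 2 RefSeq starts, is chr2:74682073-74682322, plus strand.
Hoxd11: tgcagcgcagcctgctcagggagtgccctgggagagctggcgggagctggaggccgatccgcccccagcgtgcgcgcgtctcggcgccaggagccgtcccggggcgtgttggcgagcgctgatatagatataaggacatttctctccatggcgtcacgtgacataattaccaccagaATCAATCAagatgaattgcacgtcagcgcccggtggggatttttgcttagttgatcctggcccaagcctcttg
The Hoxa2 window is chr6:52164832-52165081, minus strand.
Hoxa2: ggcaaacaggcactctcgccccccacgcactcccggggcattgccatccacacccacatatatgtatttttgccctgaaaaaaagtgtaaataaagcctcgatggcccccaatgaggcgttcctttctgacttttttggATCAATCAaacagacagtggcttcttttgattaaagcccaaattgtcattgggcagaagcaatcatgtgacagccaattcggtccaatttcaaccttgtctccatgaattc
The Hoxb4 window is chr11:96318017-96318266, plus strand.
Hoxb4: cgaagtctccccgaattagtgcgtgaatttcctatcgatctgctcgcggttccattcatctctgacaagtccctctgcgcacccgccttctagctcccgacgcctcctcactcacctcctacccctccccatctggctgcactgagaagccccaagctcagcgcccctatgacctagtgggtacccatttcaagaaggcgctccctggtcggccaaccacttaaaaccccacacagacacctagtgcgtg
RefSeq gave 24 such windows for 22 of the 39 genes. TGATTNAT matched in 2 of the 24, those of Hoxa2 and Hoxd11 printed above, and in 928 of 32851 windows of the same length over all genes (2.82%). TATAAA matched in 4 of the 24 and in 12.4% of all windows, and the Hoxb8 window holds 2 matches to it. The Hoxb4 window has neither. These matches describe letters only.

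How far along the body axis did the Hox transcripts of these tibia samples lie? Levels are compared between genes in CPM per kb, that is, CPM divided by the length of the gene's exons. Transcripts of the middle of the clusters were the most abundant, those of paralogs 11 to 13 were low or near 0, and no cluster was silent. In the sum over all 39 genes, 145 ± 22.0 CPM per kb (SD, n = 14), paralogs 4 to 8 made up 58.6 ± 2.09%, paralogs 9 to 13 35.0 ± 2.77% and paralogs 1 to 3 6.45 ± 1.06%. By paralog number the summed level was 30.9 CPM per kb for 8, 28.1 for 10 and 20.6 for 9. It was 12.1 to 15.7 for paralogs 4 to 7, and 1.23, 2.97 and 5.02 for paralogs 1, 2 and 3. Beyond paralog 10 it was 1.97 for 11, 0.365 for 12 and 0.156 for 13. The drop from 10 to 11 held in every library, since the lowest sum for paralog 10 was 16.7 and the highest for paralog 11 was 3.12.

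All 4 clusters contributed to the sum. Hoxc made up 31.4 ± 3.15% of the summed level, Hoxb 29.0 ± 4.36%, Hoxa 21.9 ± 1.93% and Hoxd 17.8 ± 1.75% (n = 14). A mean level of at least 1 CPM per kb was reached by 27 genes, 6 lay between 0.1 and 1, and 6 were below 0.1. The 5 genes too low for the filter of the statistical test were Hoxa13, Hoxb1, Hoxb13, Hoxd12 and Hoxd13, with at most 11, 3, 9, 1 and 8 counts in any library. Hoxa13 and Hoxd13, the genes of the paw, were at 0 in 9 and 3 of 14 libraries.

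**Figure D1:**
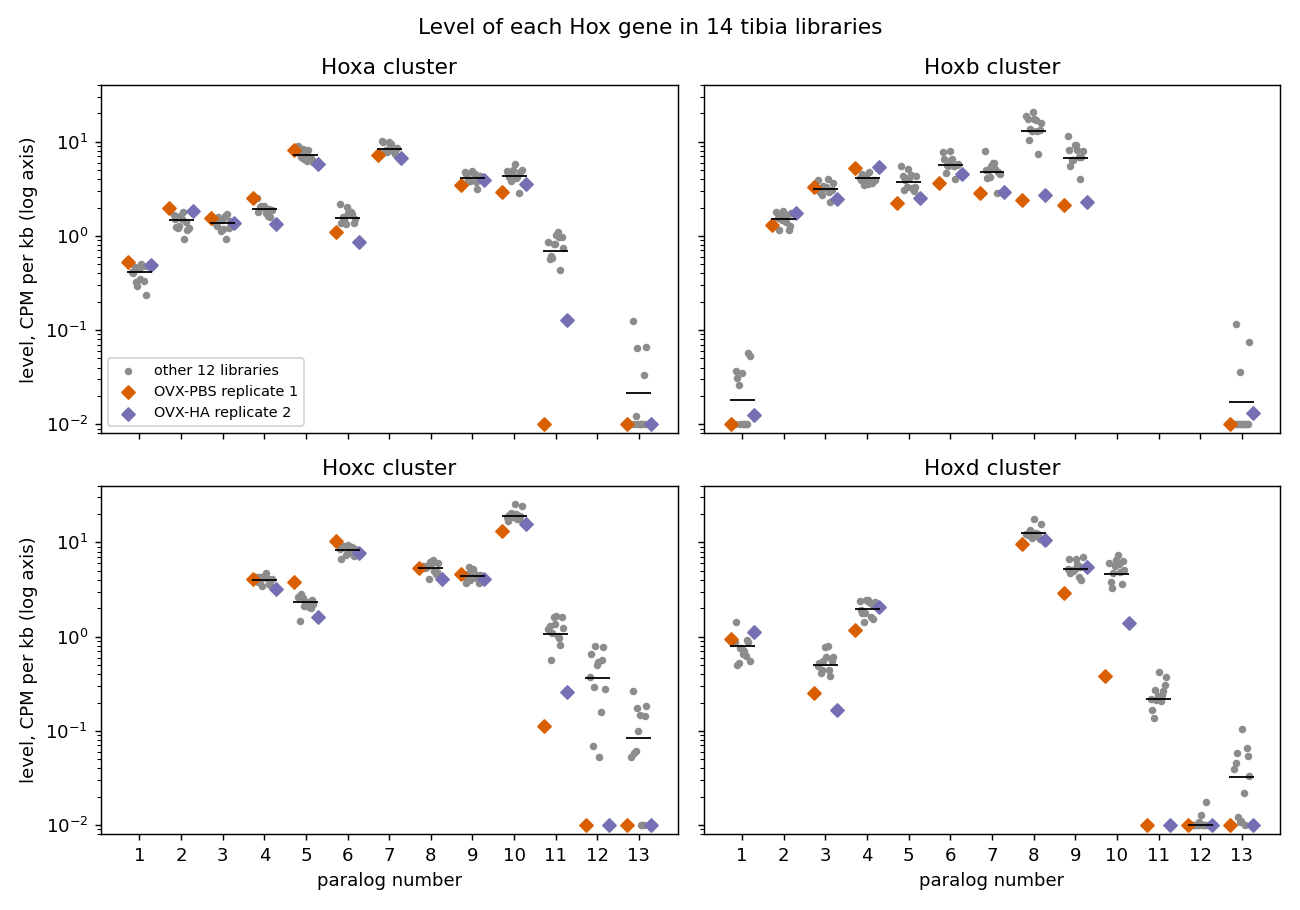
Level of each of the 39 Hox genes in CPM per kb (log axis; values under 0.01 are drawn at 0.01) against paralog number, 1 panel per cluster; points are libraries and the bar is the mean of all 14. Levels are highest from paralog 4 to 10 and fall at 11 to 13, and the 2 diamonds lie below the 12 grey points at Hoxb8, Hoxb9, Hoxd10 and all 3 genes of paralog 11.

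Hoxc10, tied to the hindlimb and to motor neurons of the lumbar cord, had the highest mean level of the 39 genes, at 19.1 ± 3.14 CPM per kb. Hoxc10 read 18.8, 17.1 and 19.5 CPM per kb in sham, 13.4, 20.7 and 18.5 in OVX-PBS, 17.9, 19.1 and 24.5 in OVX-ZA, 19.8, 15.6 and 25.5 in OVX-HA and 19.9 and 17.5 in OVX-PPA. Only 2 of 14 libraries had more Hoxb8 than Hoxc10. Hoxb8 and Hoxd8 came next, at 13 ± 5.59 and 12.5 ± 2.06 CPM per kb, and their order was not settled, since Hoxb8 was the higher in 7 of 14 libraries. Hoxd8 was above the fourth gene, Hoxa7, in all 14. Of the 38 neighbouring pairs in the order of mean levels, 6 differed by more than the larger SD of the pair.

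Each of the other 12 paralog numbers is shown by the gene with its highest mean level. Among the head-side genes, Hoxd1, a gene of early hindbrain and sensory neurons, averaged 0.803 ± 0.253 CPM per kb. Hoxd1 read 0.883, 1.42 and 0.503 CPM per kb in sham, 0.952, 0.523 and 0.759 in OVX-PBS, 0.930, 0.888 and 0.554 in OVX-ZA, 0.735, 1.12 and 0.651 in OVX-HA and 0.699 and 0.627 in OVX-PPA. Sham replicate 2 was the highest of these, and the groups overlapped. Hoxb2, which patterns the hindbrain, varied less. Hoxb2 read 1.79, 1.54 and 1.16 CPM per kb in sham, 1.30, 1.65 and 1.47 in OVX-PBS, 1.15, 1.28 and 1.75 in OVX-ZA, 1.84, 1.73 and 1.42 in OVX-HA and 1.39 and 1.68 in OVX-PPA. Hoxb3, its neighbour, is active in hindbrain and in blood progenitors. Hoxb3 read 3.91, 3.03 and 2.83 CPM per kb in sham, 3.28, 2.7 and 3.36 in OVX-PBS, 2.28, 3.05 and 3.65 in OVX-ZA, 3.19, 2.47 and 3.26 in OVX-HA and 4.03 and 2.94 in OVX-PPA. The groups overlapped for both.

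In the middle of the clusters, Hoxb4 is known for expanding blood stem cells. Hoxb4 read 4.08, 3.93 and 4.50 CPM per kb in sham, 5.21, 3.48 and 3.74 in OVX-PBS, 3.60, 3.92 and 3.91 in OVX-ZA, 4.19, 5.38 and 3.58 in OVX-HA and 4.72 and 3.84 in OVX-PPA. Its 2 highest values were those of OVX-PBS replicate 1 and OVX-HA replicate 2. Hoxa5 shapes the lower neck, upper ribs and lung. Hoxa5 read 8.93, 7.32 and 6.93 CPM per kb in sham, 8.25, 8.37 and 6.62 in OVX-PBS, 6.72, 6.38 and 6.05 in OVX-ZA, 7.81, 5.77 and 6.29 in OVX-HA and 8.21 and 6.84 in OVX-PPA. Hoxc6 and Hoxa7 belong to the thorax, and Hoxc6 is also used in motor neurons of the forelimb level. Hoxc6 read 8.58, 6.68 and 9.13 CPM per kb in sham, 10.3, 9.14 and 7.29 in OVX-PBS, 9.04, 7.13 and 8.45 in OVX-ZA, 8.61, 7.73 and 9.45 in OVX-HA and 8.25 and 7.76 in OVX-PPA. Hoxa7 read 10.2, 9.87 and 7.80 CPM per kb in sham, 7.18, 8.22 and 7.74 in OVX-PBS, 7.93, 7.47 and 8.54 in OVX-ZA, 9.90, 6.74 and 9.33 in OVX-HA and 9.46 and 8.01 in OVX-PPA. For Hoxc6 the highest library was OVX-PBS replicate 1, and for Hoxa7 the lowest were OVX-HA replicate 2 and OVX-PBS replicate 1. Hoxb8 is active in dorsal spinal cord and in the blood progenitors that give rise to myeloid cells. Hoxb8 read 18.5, 17.3 and 10.3 CPM per kb in sham, 2.39, 13.6 and 13.1 in OVX-PBS, 7.42, 13.3 and 15.8 in OVX-ZA, 20.6, 2.7 and 17.3 in OVX-HA and 16.9 and 13 in OVX-PPA. The same 2 libraries were the lowest by far, and OVX-ZA replicate 1 and sham replicate 3 followed.

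Toward the tail end, Hoxb9 helps to pattern ribs. Hoxb9 read 11.6, 8.15 and 5.55 CPM per kb in sham, 2.13, 6.34 and 6.36 in OVX-PBS, 4.04, 6.91 and 8 in OVX-ZA, 9.22, 2.31 and 9.18 in OVX-HA and 8.14 and 6.84 in OVX-PPA. Hoxc11 acts in the hindlimb and lower spinal cord. Hoxc11 read 1.20, 1.28 and 0.571 CPM per kb in sham, 0.113, 1.08 and 1.64 in OVX-PBS, 0.816, 1.64 and 1.22 in OVX-ZA, 1.35, 0.261 and 1.67 in OVX-HA and 1.02 and 0.963 in OVX-PPA. For both genes OVX-PBS replicate 1 and OVX-HA replicate 2 were again the lowest, whatever their group. Hoxc12 lies next to it on the tail side of the cluster. Hoxc12 read 0.375, 0.656 and 0.0699 CPM per kb in sham, 0, 0.295 and 0.801 in OVX-PBS, 0.560, 0.780 and 0.280 in OVX-ZA, 0.504, 0 and 0.540 in OVX-HA and 0.0526 and 0.157 in OVX-PPA. Hoxc13, a gene of hair and nail, was lower still. Hoxc13 read 0.0524, 0.263 and 0.0586 CPM per kb in sham, 0, 0.0619 and 0.173 in OVX-PBS, 0, 0.145 and 0.184 in OVX-ZA, 0.1, 0 and 0.147 in OVX-HA and 0 and 0 in OVX-PPA. Hoxc12 was at 0 in 2 libraries and Hoxc13 in 5, among them both OVX-PPA libraries. Hoxc13 had at most 23 counts in any library, and Hoxc12 at most 31.

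Genes also differed in how steady they were. Across 14 libraries the SD was 10.8% of the mean for Hoxc4, 12.1% for Hoxc9 and 12.3% for Hoxa9, against 42.9% for Hoxb8, 42.5% for Hoxd10 and 47.6% for Hoxa11. Over the 12 libraries rich in central nervous transcripts, the SD of the last 3 was 25.0%, 23.7% and 26.4% of the mean.

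Did the Hox genes differ in the libraries low in central nervous transcripts? The 2 libraries were singled out by nervous transcripts, in an earlier account of these data, and not by Hox genes, and they come from different groups. Of the 34 Hox genes tested, 13 lay below the other 12 libraries in both, where 12.4% of all 21761 genes tested did. They were Hoxa6, Hoxa7, Hoxa11, Hoxb5, Hoxb8, Hoxb9, Hoxc10, Hoxc11, Hoxc12, Hoxd3, Hoxd8, Hoxd10 and Hoxd11. Hoxa2 and Hoxb4 lay above the other 12 in both (13.2% of all genes did), and 19 did neither. With total counts in place of TMM the count below was 14 (15.3% of all genes) and the count above 0 (4.24% of all genes). Whether Hoxa2 and Hoxb4 lay above the 12 in both libraries thus depends on the scaling.

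The genes that differed by most had paralog numbers of 8 and above. With levels under 3 counts set to 3 counts as a floor, the median of the 12 libraries was at least 3 times the level in both for 6 of 34 Hox genes, against 3.74% of all genes, and these were Hoxb8, Hoxb9, Hoxd10, Hoxa11, Hoxc11 and Hoxd11. Hoxb8 read 6.29 and 7.11 CPM in OVX-PBS replicate 1 and OVX-HA replicate 2, against 19.5 to 54.2 (median 38.7) in the others. These values are 6.16-fold and 5.45-fold below the median, from 110 and 243 counts. Hoxb9 read 5.49 and 5.94 CPM against 10.4 to 29.8 (median 19.2), 3.50-fold and 3.23-fold lower. Neither gene overlapped between the 2 libraries and the 12.

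Hoxd10, which with Hoxc10 sets motor neuron identity in the lumbar cord, read 0.686 and 2.52 CPM against 5.94 to 13.3 (median 9.83), 14.3-fold and 3.91-fold lower. Paralog 11, the group of the lower leg, was low as a whole. Its summed level was 0.113 and 0.389 CPM per kb, against 1.32 to 3.12 in the other 12. Hoxc11 read 0.229 and 0.527 CPM against 1.15 to 3.38 (median 2.45), 10.7-fold and 4.65-fold lower. Hoxa11 read 0.293 CPM in OVX-HA replicate 2 (6.40-fold lower than the median of 1.87) and was near 0 in OVX-PBS replicate 1. Set against a floor of 3 counts in that library, it was at least 10.9-fold lower there. Hoxd11 had no counts in either library, against 0.576 to 1.78 CPM (median 0.996) in the others, at least 5.81-fold and 11.3-fold lower by the same floor. Hoxc12 and Hoxc13 had no counts in either library and were few elsewhere. By the floor Hoxc12 was at least 2.64-fold and 5.16-fold below its median of 0.453 CPM, and Hoxc13 at least 1.16-fold and 2.27-fold below its median of 0.199. The lowest of the other 12 libraries for Hoxc12, at 0.0543 CPM, was under the floor, so its place below all 12 could not be resolved at this depth. Antisense transcripts cover part of the Hoxa11 exons, so the value of Hoxa11 is uncertain.

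Most head-side and middle genes lay closer to the other 12 libraries, with exceptions such as Hoxd3, at 46.7% and 30.9% of their median. As a share of the median of the 12 libraries, Hoxc6 stood at 121% and 90.8% in OVX-PBS replicate 1 and OVX-HA replicate 2, Hoxc9 at 106% and 93.2% and Hoxa7 at 85.6% and 80.4%. Hoxc10 stood at 69.4% and 80.9%, so the most abundant Hox gene lay closer to its median in the 12 libraries than its paralog Hoxd10, at 6.98% and 25.6%. Hoxb4 stood at 133% and 138%, Hoxa2 at 150% and 139% and Hoxd1 at 133% and 156%. Across the 34 genes this percentage ran against paralog number, with a Spearman rho of -0.72 in OVX-PBS replicate 1 and -0.63 in OVX-HA replicate 2. This is a description over genes of 4 clusters that share libraries and neighbours. All clusters held genes below the 12 in both libraries, with 3 each in Hoxa, Hoxb and Hoxc and 4 in Hoxd.

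**Figure D2:**
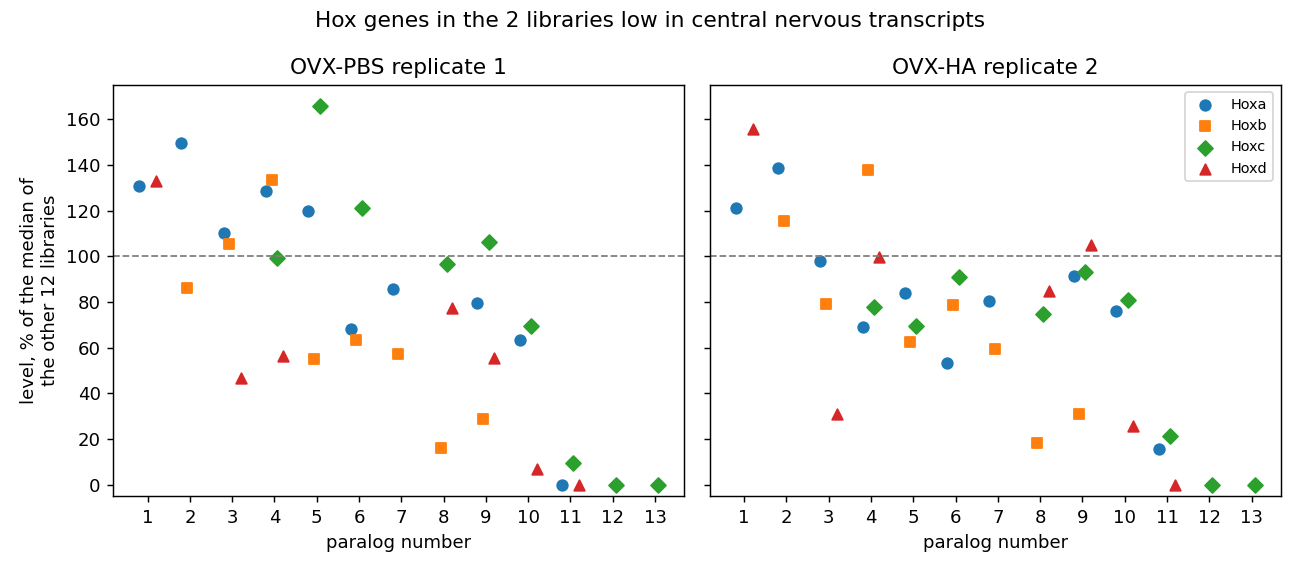
Level of each tested Hox gene in OVX-PBS replicate 1 (left) and OVX-HA replicate 2 (right) as a percent of its median over the other 12 libraries (y axis) against paralog number (x axis); symbols and colours are the 4 clusters and the dashed line is 100%. Values run from 30.9 to 166% up to paralog 7 and lie at or under 21.5% at paralogs 11 to 13. Genes without counts are drawn at 0%, not at the floor of 3 counts. By that floor Hoxc13 was at least 1.16-fold and 2.27-fold below its median, and Hoxc12 at least 2.64-fold and 5.16-fold.

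In shares of the summed level, paralogs 9 to 13 stood at 27.4% in OVX-PBS replicate 1 and 34% in OVX-HA replicate 2, against 33.8 to 38.8% in the other 12. Paralogs 1 to 3 stood at 9.0% and 8.53%, above the 5.10 to 6.66% of the others. By share, both libraries were outside the range of the 12 for paralogs 1 to 3, and OVX-PBS replicate 1 alone for paralogs 9 to 13. Summed levels differed from this, since the sum over all 39 genes was 109 and 108 CPM per kb, against 125 to 176. Paralogs 1 to 3 summed to 9.85 and 9.20 CPM per kb, within the 8.01 to 10.8 of the 12. For paralogs 4 to 8 the sums were 69.6 and 62.0 against 73.1 to 103, and for paralogs 9 to 13 29.9 and 36.7 against 43.5 to 68.3. Both libraries were thus below the 12 in these 2 classes.

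Slc6a5, a glycine transporter of inhibitory neurons in cord and brainstem, was chosen as the nervous gene for this view after its values were seen. It read 0.172 and 0.498 CPM in OVX-PBS replicate 1 and OVX-HA replicate 2. Among the other 12 it was lowest in OVX-ZA replicate 1 at 29.9 and sham replicate 3 at 34.9, and reached 86.7. Those same 2 libraries had the lowest Hoxb8 of the 12, at 19.5 and 27.3 CPM. Whether nervous tissue in the sample set these Hox levels was not tested. Markers of sensory neurons and Schwann cells, from lists of 8 and 5 genes, did not follow, with 0 genes below or above the other 12 in both libraries. Of 10 bone genes, 3 lay above, Bglap, Bglap2 and Dmp1, where 13.2% of all genes did. With total counts as scaling Dmp1 alone did, with 4.24% of all genes.

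**Figure D3:**
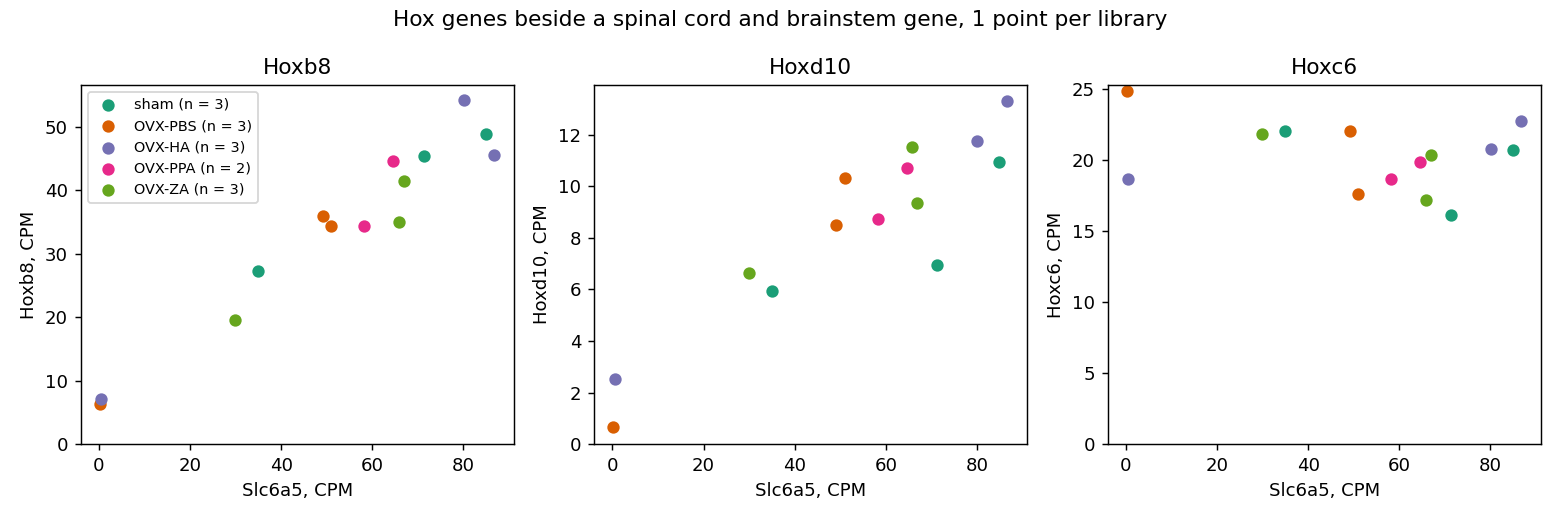
Hoxb8, Hoxd10 and Hoxc6 (y axes, CPM) against Slc6a5 (x axis, CPM), 1 point per library, coloured by group. Hoxb8 and Hoxd10 are lowest in the 2 libraries near 0 for Slc6a5, while Hoxc6, at 24.8 and 18.6 CPM there, lies within or above the 16.1 to 22.7 of the other 12.

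The partners and the neighbours of the Hox genes were read from lists. Hox proteins bind DNA with TALE partners of the Pbx, Meis and Pknox families, and all 9 of these were expressed at a median of at least 1 CPM. Per length the highest were Pbx2 (11 CPM per kb), Pknox1 (3.71), Meis3 (3.31) and Pknox2 (3.02). Meis2 was the single partner below the other 12 in both libraries, at 6.69 and 6.03 CPM against 9.98 to 27.6. This is 1 of 9 partners, near the 12.4% of all genes that did so. Meis2 is named here, as are the other single genes of this paragraph and the next, after its values were seen. Of 12 noncoding RNAs and flanking genes of the clusters, 4 lay below the others in both and 0 above (12.4% and 13.2% of all genes). Hotair, an RNA from between Hoxc11 and Hoxc12, read 0 and 0.0878 CPM against 0.324 to 2.06, and Haglr, from the Hoxd cluster, 0.629 and 1.02 against 1.36 to 2.59. Hoxa11os, which overlaps Hoxa11, and Evx1, beside Hoxa13, were the others, and Evx1, at 0.114 and 0.0878 CPM, did not exceed the floor of 3 counts in either library. Hotairm1, at the head end of Hoxa, was the most abundant of the list at 1.83 CPM per kb.

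Other genes of body position gave a mixed record. Of 9 limb genes, Tbx15 (24.3 CPM per kb) and Prrx1 (6.06) were the highest, followed by En1 (2.43) and Shox2 (1.95). Tbx4, the switch of the hindlimb, read 0.516 to 1.95 CPM over 14 libraries, Pitx1, its activator, 0 to 0.796, and Tbx5, the forelimb counterpart, 0.0983 to 0.742. Lmx1b is used in dorsal limb and in spinal cord and brainstem neurons. It was the single limb gene below the other 12 in both libraries (0.686 and 0.176 CPM against 1.73 to 5.31). This is 1 of 9 limb genes, near the 12.4% of all genes that did so. Of 8 genes of the vertebral column, Meox2 (6.12 CPM per kb), Meox1 (3.40), Foxc2 (2.12) and Pax1 (1.07) led. Pax1, Pax9 and Nkx3-2, which mark the cells that form vertebral bodies and discs, lay above the other 12 in both. Over all genes, 13.2% did so. With total counts as scaling the same 3 did, with 4.24% of all genes. Pax1 read 10.3 and 7.23 CPM against 3.13 to 5.36. Of the genes of the forebrain and midbrain, which lie ahead of the reach of Hox genes, Otx1, Otx2, Emx1 and Tbr1 read no more than 0.172 CPM in any library.

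Which Hox genes differed between the study's groups? The study asked about phenolic acids and bone loss after ovariectomy, with zoledronic acid as another treatment. By edgeR quasi-likelihood with Benjamini-Hochberg (BH) adjustment over 21761 genes, 0 of 34 Hox genes passed an FDR of 0.05 in any of 5 comparisons, where 0% of all genes passed in each. DESeq2 also called 0 Hox genes in each, and of all genes it called 1 in OVX-PBS versus sham and 32 in OVX-ZA versus OVX-PBS. The 3 comparisons of a treatment with OVX-PBS share its 3 libraries, and OVX-PBS versus sham uses them too.

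After ovariectomy 27 of 34 Hox genes were numerically lower and 7 higher than in sham, with a median log2 difference of -0.16, against 0.0079 over all genes tested. Unadjusted p was below 0.05 for 0 of 34 (2.73% of all genes). Without the 2 libraries low in nervous transcripts, 22 were lower and 12 higher, with a median of -0.08. The median of the central nervous list was -0.90 in the full comparison and -0.31 without them. Hoxd4, a gene of hindbrain and neck vertebrae, had the smallest p of the lower genes. Hoxd4 read 6.97, 5.60 and 5.21 CPM in sham, 3.43, 4.17 and 5.31 in OVX-PBS, 6.57, 4.54 and 6.91 in OVX-ZA, 7.16, 6.06 and 7.22 in OVX-HA and 6.86 and 4.82 in OVX-PPA. OVX-PBS and sham overlapped, and the log2 difference was -0.45 ± 0.221 (SE; edgeR quasi-likelihood, BH adjusted p = 0.913). Hoxa9, a gene of the lumbar axis and of blood progenitors, was the single Hox gene whose groups did not overlap, at 19.2, 21.3 and 21.3 CPM in OVX-PBS and 26.7, 25.4 and 22.2 in sham. Its log2 difference was -0.27 ± 0.142, and 3.61% of all genes had OVX-PBS wholly below sham. Hoxa7 differed by -0.27 ± 0.154. The 3 with the smallest p among the higher genes were Hoxc9 (0.17 ± 0.153), Hoxc5 (0.27 ± 0.269) and Hoxc6 (0.13 ± 0.158), and the direction of the last 2 turned without sham replicate 2. Without the 2 libraries low in nervous transcripts the differences were -0.30 for Hoxd4, 0.02 for Hoxc5 and 0.03 for Hoxc6.

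With hippuric acid 26 Hox genes were numerically higher and 8 lower than in OVX-PBS, with a median of 0.19 against 0.014 over all genes. Hoxd4 alone had an unadjusted p below 0.05 (1 of 34, against 1.47% of all genes). Its mean was 6.81 ± 0.652 CPM with hippuric acid against 4.30 ± 0.947 with PBS (n = 3 each), and all 3 OVX-HA libraries were above all 3 OVX-PBS libraries. The log2 difference was 0.65 ± 0.220, with a 95% interval of 0.18 to 1.13, and did not pass the adjustment (edgeR quasi-likelihood, unadjusted p = 0.0116, BH adjusted p = 1). Hoxd4 shares 52.3% of its exon bases with Hoxd3 and a predicted gene, so this value may hold their reads. Hoxa9 (0.27 ± 0.142) and Hoxd9 (0.41 ± 0.255) were the other Hox genes whose groups did not overlap, all 3 higher, where 2.24% of all genes did so, and 0 Hox genes lay wholly below (1.82% of all genes). The lower genes with the smallest p were Hoxc5 (-0.43 ± 0.269), Hoxa5 (-0.22 ± 0.154) and Hoxa4 (-0.29 ± 0.208). Without OVX-PBS replicate 1 and OVX-HA replicate 2 these 3 differences shrank to -0.04, -0.12 and -0.06, and that of Hoxd9 to 0.20, while Hoxd4 (0.57) and Hoxa9 (0.27) moved by less. Each arm held 1 of the libraries low in nervous transcripts, and without both 29 Hox genes were higher and 5 lower, with a median of 0.24. The median of the central nervous list was 0.63 with all libraries and 0.64 without both.

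With 3-3-PPA 24 Hox genes were numerically higher and 10 lower than in OVX-PBS (median 0.16 against -0.02 over all genes), and 0 of 34 had an unadjusted p below 0.05 (1.87% of all genes). Hoxd4 (0.43 ± 0.246), Hoxa6 (0.44 ± 0.337) and Hoxb7 (0.44 ± 0.355) led the higher genes. The groups did not overlap for 5 higher genes, Hoxa6, Hoxa11, Hoxb7, Hoxb9 and Hoxc4, and for 1 lower gene, Hoxa4, where 11.7% and 8.74% of all genes did so. The lower genes with the smallest p were Hoxc13, Hoxa4 (-0.37 ± 0.238) and Hoxc12 (-1.77 ± 1.43). Hoxc13 had no counts in either OVX-PPA library and 0, 5 and 16 counts in OVX-PBS, so no fold is given. The median of the central nervous list was 0.87 with all libraries and 0.37 without the 2 low ones. Without them Hoxb7 differed by 0.26 and Hoxa4 by -0.27. The Hox median was then 0.06, with 21 higher and 13 lower. Hoxc12 and Hoxc13 had an unadjusted p below 0.05 (2 of 34, against 1.86% of all genes), and Hoxc12 had only 1 and 5 counts in OVX-PPA.

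With zoledronic acid 23 Hox genes were numerically higher and 11 lower than in OVX-PBS (median 0.09 against -0.04 over all genes), and 0 of 34 had an unadjusted p below 0.05 (3.36% of all genes). Hoxd4 differed by 0.47 ± 0.223 (6.01 ± 1.28 against 4.30 ± 0.947 CPM, n = 3 each; edgeR quasi-likelihood, BH adjusted p = 0.899), Hoxd9 by 0.34 ± 0.257 and Hoxc10 by 0.23 ± 0.197. Hoxa5 (-0.28 ± 0.155), Hoxa4 (-0.31 ± 0.212) and Hoxc9 (-0.20 ± 0.154) were the lower genes with the smallest p. Hoxa4 was the single gene without overlap, where 9.96% of all genes lay wholly below OVX-PBS. The median of the central nervous list was 0.62 with all libraries and 0.12 without the 2 low ones. Without them the differences of Hoxd9 and Hoxc10 were 0.14 and 0.09, and that of Hoxa4 -0.19. The Hox median was 0.02 without them and -0.04 with the central nervous level as a covariate.

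Hippuric acid and 3-3-PPA were also set against each other, over the same time but at doses not given. Of 34 Hox genes 19 were numerically higher in OVX-HA and 15 lower, with a median of 0.05 against 0.021 over all genes, and 0 had an unadjusted p below 0.05 (1.19% of all genes). OVX-HA lay wholly above OVX-PPA for 0 Hox genes (6.55% of all genes) and wholly below for 0 (3.68%). Hoxa2 differed by 0.30 (95% interval -0.35 to 0.95), Hoxa5 by -0.18 (-0.56 to 0.19), Hoxb3 by -0.23 (-0.72 to 0.26) and Hoxc4 by -0.14 (-0.50 to 0.22). Hoxc12 differed by 1.57 (-1.57 to 4.71), and Hoxc13 had 9, 0 and 11 counts in OVX-HA. These intervals leave room for differences in either direction, so likeness of the 2 acids is not shown. The median and the directions of Hoxa2 and Hoxb3 turned when single libraries were left out. Without OVX-PBS replicate 1 and OVX-HA replicate 2, 28 genes were higher and 6 lower, with a median of 0.18 (central nervous list 0.29, against -0.23 with all libraries). Hoxa2, Hoxb3 and Hoxc4 then differed by 0.20, -0.14 and -0.03. Hoxc12 and Hoxc13 had an unadjusted p below 0.05, which is 2 of 34, near the 5.39% of all genes. Hoxc12 had 1 and 5 counts in OVX-PPA, and Hoxc13 had none.

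**Figure D4:**
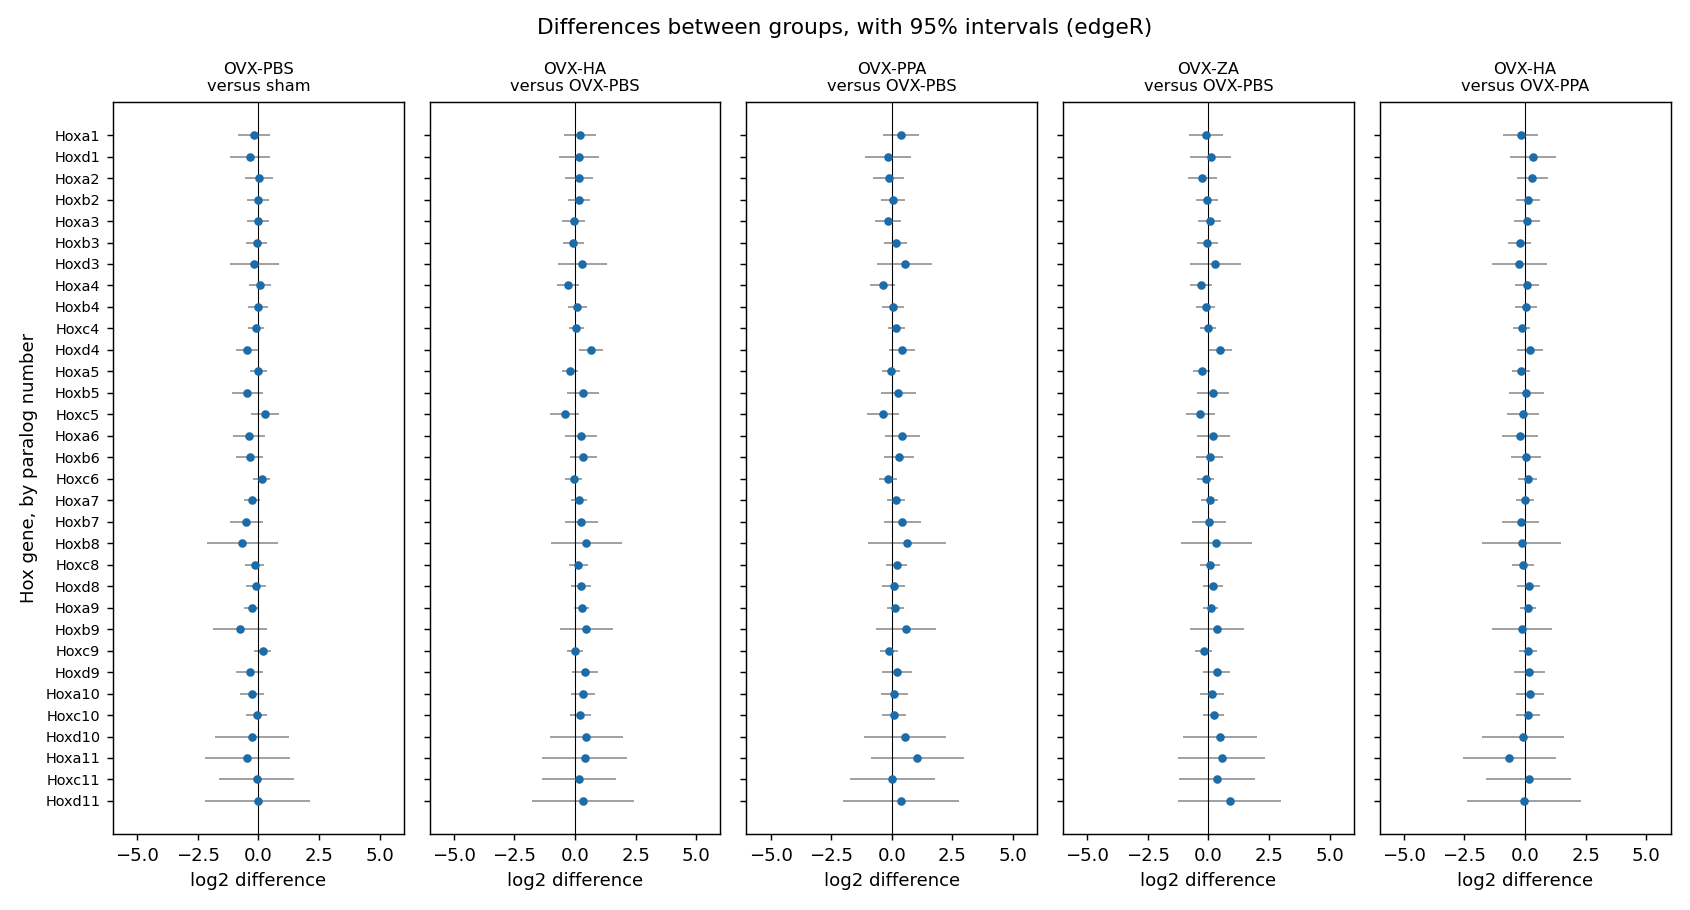
Log2 difference of each Hox gene (point) with its 95% interval (line) from edgeR in 5 comparisons, genes ordered by paralog number; Hoxc12 and Hoxc13, which had few counts, are left out. All intervals cross 0 apart from Hoxd4 in OVX-HA versus OVX-PBS, and those of Hoxb8, Hoxb9, Hoxd10 and paralog 11 are the widest drawn.

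By paralog class, the share of paralogs 9 to 13 in the summed level was 34.3 ± 0.474% in sham, 33.3 ± 5.31% in OVX-PBS, 36.9 ± 1.75% in OVX-ZA, 35.7 ± 2.64% in OVX-HA and 34.5 ± 0.552% in OVX-PPA. The group means lay within 1 SD of OVX-PBS, but the low value of OVX-PBS replicate 1 made that SD the largest. By the smaller SD of sham, the means of OVX-PBS, OVX-ZA and OVX-HA lay more than 1 SD from sham. Likeness of the groups is thus not shown. Of the lists of partners, regulators, noncoding neighbours and other position genes, 0 members passed the FDR by edgeR in any of the 5 comparisons, and at most 1 member per list had an unadjusted p below 0.05.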

How the data were processed

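Per the labels' protocols, poly(A) RNA from tibia went into stranded libraries, sequenced with an Illumina NextSeq 500 to single 75 nt reads. STAR 2.7.8a, Bowtie2 2.2.5, Partek, CASAVA 1.8.1 and the build mm10 are named in the submitters' processing notes. The annotation, the counting tool and its use of strand were not given in the sources used here. The authors deposited a table of estimated counts, 1 value per symbol and library, not normalized, with 20.7% of values more than 0.01 away from a whole number. A log2 table that the authors deposited was not used here.

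Groups came from the treatment labels. Counts were rounded, filtered by group (21761 genes kept) and scaled by TMM, and 1 quasi-likelihood fit of all 14 libraries in edgeR 4.0.16 under R 4.3.3 (biological coefficient of variation 25.0%, residual degrees of freedom 9) gave 5 two-sided comparisons with Benjamini-Hochberg adjustment. DESeq2 1.42.0 was an alternative. CPM per kb is CPM over the union of a gene's exons in GENCODE vM21, where 53292 of 55291 symbols (96.4%) and all 39 Hox genes were found. At 3 counts the floor is 0.172 CPM in OVX-PBS replicate 1 and 0.0878 in OVX-HA replicate 2, and counting error alone is covered by it.

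The members and the gene lists were chosen with earlier results of these data known. By the rule for named genes, the text gives every library's value for the gene with the highest mean level of each paralog number, and in each comparison any Hox gene past the FDR or, failing that, up to 3 per direction with the smallest p. Of each list, up to 4 members with the highest mean level are named. Same-numbered libraries of OVX-ZA and OVX-PBS correlated in their deviations (r = 0.12 to 0.58 over 3 pairs and 15770 genes). Differently numbered ones ran from -0.49 to 0.44, so the ranges overlapped and pairing is not shown. No label says that a number marks a shared animal or day.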

Additional observations from a re-analysis of the deposited data

How the results depend on the processing

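Calls of Hox genes stayed at 0 under each alternative run in each of the 5 comparisons, with 0 to 3 Hox genes at an unadjusted p below 0.05. Of 375 recomputed differences of 30 named gene results, 371 kept their direction and their side of the threshold and 4 turned. Without sham replicate 2, OVX-PBS versus sham turned to -0.0047 for Hoxc5 and -0.021 for Hoxc6, which reached 0.44 and 0.22 without sham replicate 3. OVX-HA versus OVX-PPA turned to 0.011 for Hoxb3 without OVX-PPA replicate 1 and to -0.12 for Hoxa2 without OVX-PPA replicate 2, where the other extremes were -0.45 (Hoxb3, without OVX-PPA replicate 2) and 0.83 (Hoxa2, without OVX-PPA replicate 1). The median Hox difference of that comparison also turned, to -0.12 or -0.06 with OVX-HA replicate 1 or replicate 3 left out and to -0.12 with OVX-PPA replicate 2 left out. The cause of these turns was not tested.

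Counts over all genes moved more. DESeq2 called 1 gene in OVX-PBS versus sham, and in OVX-ZA versus OVX-PBS 32. In the latter, edgeR called 3 genes with no filter on low counts, 6 with the central nervous level as a covariate, 6 without OVX-PBS replicate 1 and OVX-HA replicate 2, 1 with only the 2 groups in the fit, and 0 to 1 when single replicates were left out (1 without OVX-ZA replicate 2). The longest transcript as the length of a gene raised the share of the Hoxa cluster to 25.1% and that of paralogs 1 to 3 to 7.66%. Hox genes above the other 12 libraries in both OVX-PBS replicate 1 and OVX-HA replicate 2 numbered 0 with total counts (4.24% of all genes). These scaling alternatives were chosen after seeing the data.

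The replicate number as a block, in a paired fit, called 0 genes in each comparison and changed no call. It left 1 Hox gene at an unadjusted p below 0.05 in each of OVX-PBS versus sham (Hoxd4) and OVX-ZA versus OVX-PBS (Hoxa5). Same-numbered libraries correlated at -0.70 to -0.05 for OVX-PBS and sham, -0.72 to 0.55 for OVX-HA and OVX-PBS, -0.23 to 0.06 for OVX-PPA and OVX-PBS, and 0.14 to 0.21 for OVX-HA and OVX-PPA. With 2 or 3 libraries a group, the 95% interval of a Hox gene reached 6.17 log2 units to each side (Hoxc13, with no counts in 1 arm). In OVX-PBS versus sham the SE was 0.808 for Hoxa11, 0.711 for Hoxc11 and 0.990 for Hoxd11, and 0.325, 0.352 and 0.336 without OVX-PBS replicate 1 and OVX-HA replicate 2. Depth limits what can be said of levels under 3 counts, such as those of Hoxc12 and Hoxc13 in these 2 libraries.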

Other observations

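Regulators of the Hox clusters were read as well. Of 17 listed genes, Psip1 (16.3 CPM per kb), Suz12 (13), Bmi1 (11) and Men1 (7.08) had the highest levels, and all are chromatin proteins that keep Hox genes on or off. Cdx2 and Cdx4, which start tail-side Hox genes in the embryo, had no counts in any library. Ezh2, Eed, Suz12 and Kdm6a lay above the other 12 libraries in both OVX-PBS replicate 1 and OVX-HA replicate 2, where 13.2% of all genes did so. With total counts as scaling 0 of the 17 did, with 4.24% of all genes. Gdf11, a secreted signal that sets tail-side Hox expression, lay below the 12 in both under either scaling (12.4% of all genes; 11.2 and 14.5 CPM against 15.2 to 22.5). These genes were named after their values were seen.

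Blood stem and progenitor cells also use Hox genes. Their markers summed to 165.0 to 186 CPM in the 12 libraries, 179 in OVX-PBS replicate 1 and 164.9 in OVX-HA replicate 2. Single members differed, as seen in their values. Of 9 genes, 2 lay below the 12 in both libraries, Flt3 and Hlf, and 1 above, Gata2. Over all genes 12.4% lay below and 13.2% above. Skeletal muscle markers summed to 24970 to 56237 CPM in the 12 and to 55985 and 32087 in those 2. Markers of brown fat, lymph node vessels, liver, skin and kidney summed to 12.9 to 249 CPM in the 12 and to 162 and 25.7 in those 2. Ucp1, of brown fat, alone read 12.5 to 226 CPM in the 12 and 161 and 24.2 in those 2. Glycam1, of lymph node vessels, peaked at 38.6 CPM and Alb, of liver, at 13.4. Krt5 and Krt14, of skin, and Umod, of kidney, peaked at only 0.0572, 0.240 and 0.421 CPM.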
